A study of Mus musculus with 51 samples.

Results

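The 35 genes described here act in DNA replication and cell division, and they were taken by gene symbol from all 6 deposited tissue tables of a study of Roux-en-Y gastric bypass (RYGB) in mice. They are 35 of the 14606 genes that appear in any of the tables. The replication set holds 11 genes and the mitotic set 24.

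The RYGB mice were male C57Bl6 animals with diet-induced obesity that had undergone the bypass 9 weeks earlier, and the sham mice were male C57Bl6 animals with diet-induced obesity that had a sham operation 9 weeks earlier. After surgery both groups received an elemental liquid diet and were brought back to high-fat food, and all were fasted overnight before tissue was taken in the morning. The sham mice had their food restricted so that they matched the RYGB mice in weight, so an effect of the operation and one of the sham group's food restriction cannot be told apart. No transgene was named in the labels, and no age of the mice is stated. RYGB and sham libraries numbered 4 and 5 in duodenum, 4 and 5 in jejunum, 2 and 5 in ileum, 5 and 4 in liver, 4 and 5 in subcutaneous white adipose tissue (WAT), and 4 and 4 in gastrocnemius muscle. These 51 libraries carry 10 animal codes, R1 to R5 for RYGB and 5 codes starting with W for sham mice, and most animals gave several tissues.

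In a dividing cell, the MCM helicase opens DNA, the clamp PCNA holds the polymerases on it, and ribonucleotide reductase and thymidylate synthase supply the building blocks. Cyclins with CDK1, the Polo and Aurora kinases, kinetochore and checkpoint proteins and spindle motors then separate the chromosomes, and a midzone of bundled microtubules directs the cut between the daughter cells. Most of these transcripts are made only in cycling cells. In the small intestine such cells sit in the crypts, beside the stem cells and the Paneth cells, while the enterocytes of the villus have left the cycle; hepatocytes, adipocytes and muscle fibres divide rarely in the adult.

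The values are CPM, a gene's reads scaled to the same total of counted reads in every library, as the authors deposited them. A gene entered a table when it reached 1 CPM in a number of libraries equal to the smaller group, which was 2 in ileum and 4 elsewhere, and 27 members were listed in duodenum, 29 in jejunum, 35 in ileum, 20 in liver, 34 in WAT and 14 in muscle. All 11 replication members were listed in jejunum, ileum and WAT, 10 in duodenum, 8 in muscle and 7 in liver. Of the 24 mitotic members 24 were listed in ileum, 23 in WAT, 18 in jejunum, 17 in duodenum, 13 in liver and 6 in muscle. A filter of this kind can admit a gene through 1 group alone or through both together. Sham libraries alone would not list 12 members in duodenum, 9 in jejunum, 1 in ileum, 12 in liver, 6 in WAT and 4 in muscle. RYGB libraries alone would not list 9 in duodenum, 1 in jejunum, 1 in ileum, 4 in liver, 4 in WAT and 2 in muscle. Counts over listed members are therefore descriptions and carry no test. Where such counts are given for single libraries, no share of all genes stands beside them.

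The listed genes sum to between 978879 and 993560.1 CPM per library, and read totals were not among the values used here, so depth is unknown. The ileum library sham 4, from animal W15, stood apart from the other ileum libraries. Its summed CPM over 10 stem cell and crypt base markers was 5761, against 59.3 to 144.6 in the sham 1 to 3 and 5 and RYGB 2 libraries and 368 in RYGB 1. Its 7 Paneth cell markers summed to 43950 CPM, against 43.3 to 715.4 in the other libraries, and its 10 villus enterocyte markers to 19010 CPM, against 64240 to 78560. The gut samples were labelled as villi, scraped off after a short incubation in cold EDTA, and this library went against that label. In duodenum, the libraries RYGB 2 and sham 1 to 3 were rich in pancreatic transcripts, with 14750 to 85410 CPM over 16 listed markers, against 26.1 to 789.6 CPM in the other 5 libraries. For RYGB muscle the source field reads sham, while title and surgery read RYGB, and these were followed.

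Promoters of 30 of the 35 members matched RefSeq windows of GRCm38.p6, 34 windows in all because 4 members have 2 starts each. The 250 bases before each start were searched on both strands for the CCAAT box (CCAAT), bound by NF-Y, for the cell cycle genes homology region (CHR; TTTGAA or TTCGAA), and for E2F words (TTTCCCGC, TTTGGCGC, TTTCGCGC or TTTGCCGC). A CCAAT box was found in 30 of 34 windows (88.2%) against 33.8% of all 32851 windows, and 2 or more of them in 18 (52.9%) against 10.1%. A CHR word was found in 12 windows (35.3%) against 17.1%, and an E2F word in 5 (14.7%) against 1.86%. The median GC content of the windows was 59.6% for the members and 52.4% for all windows, and a match to such short words is a description only. The E2F words lay in Mcm5, Mcm6, Mcm7, Uhrf1 and Cdk1.

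The 150 bases before the start of 7 members are shown because these genes carry the results below and differ in their words: Mcm6 and Mcm2 for the helicase, Cdk1 and Ccnb2 for the mitotic kinase, Top2a for chromosome condensation, and Prc1 and Ect2 for the midzone. They run 5′ to 3′ on the gene's strand, are GRCm38.p6 sequence from RefSeq, and carry CCAAT, CHR and E2F words in capitals, in either orientation.
Mcm6 (chr1:128359706-128359855, minus strand): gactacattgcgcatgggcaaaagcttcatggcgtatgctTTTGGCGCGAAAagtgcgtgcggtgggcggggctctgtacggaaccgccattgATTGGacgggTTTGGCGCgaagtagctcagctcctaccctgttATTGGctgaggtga
Mcm2 (chr6:88898781-88898930, minus strand): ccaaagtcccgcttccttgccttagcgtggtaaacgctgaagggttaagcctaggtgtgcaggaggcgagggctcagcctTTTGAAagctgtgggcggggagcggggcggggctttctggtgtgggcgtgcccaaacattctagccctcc
Cdk1 (chr10:69352913-69353062, minus strand): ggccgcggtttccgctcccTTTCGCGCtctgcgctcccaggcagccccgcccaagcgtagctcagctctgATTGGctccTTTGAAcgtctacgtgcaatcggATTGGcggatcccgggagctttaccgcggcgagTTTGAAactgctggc
Ccnb2 (chr9:70421555-70421704, minus strand): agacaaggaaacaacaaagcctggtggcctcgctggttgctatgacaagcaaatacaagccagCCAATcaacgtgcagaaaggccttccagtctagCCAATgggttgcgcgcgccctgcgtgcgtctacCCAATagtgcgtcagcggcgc
Top2a (chr11:99024190-99024339, minus strand): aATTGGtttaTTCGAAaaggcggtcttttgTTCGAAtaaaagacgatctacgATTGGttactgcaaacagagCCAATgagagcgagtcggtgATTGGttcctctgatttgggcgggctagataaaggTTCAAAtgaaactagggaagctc
Prc1 (chr7:80294326-80294475, plus strand): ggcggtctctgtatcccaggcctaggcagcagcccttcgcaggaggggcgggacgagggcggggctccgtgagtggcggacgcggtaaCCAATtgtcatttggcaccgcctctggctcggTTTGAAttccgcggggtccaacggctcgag
Ect2 (chr3:27153879-27154028, minus strand): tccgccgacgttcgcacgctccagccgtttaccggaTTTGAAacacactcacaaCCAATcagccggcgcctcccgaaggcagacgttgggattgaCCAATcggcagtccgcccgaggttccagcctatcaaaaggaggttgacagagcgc
Ccnb2 held 3 CCAAT boxes in the same orientation, 33 bases apart. Top2a held 6 CCAAT boxes and 4 CHR words in its 250 bases. Mcm6 held 3 E2F words, of which the first and second overlap in 1 run of capitals, and no CHR word. Mcm2 held a CHR word and no E2F word, and its only CCAAT box lay outside the bases shown. Prc1 has 2 annotated starts in RefSeq, and the later one is shown.

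In duodenum, the segment that RYGB takes out of the path of food, Prc1, Mcm2 and Ect2 rose. Prc1, which bundles the microtubules of the spindle midzone, had 30.8, 8.5, 5.0 and 14.5 CPM in the RYGB libraries 1 to 4, against 0.9, 0.6, 0.7, 1.1 and 3.7 CPM in the sham libraries 1 to 5. Every RYGB library was above every sham library, and the log2 fold change, RYGB over sham on the log2(CPM + 1) scale, was 2.56 ± 0.46 (SE; limma adjusted p = 0.0487 over all genes of the table). Mcm2, a subunit of the replicative helicase, had 26.2, 9.8, 14.9 and 19.7 CPM in RYGB libraries, against 2.6, 4.5, 2.2, 2.1 and 8.1 CPM in sham libraries. The groups did not overlap, and the log2 fold change was 1.98 ± 0.37 (limma adjusted p = 0.0487). Ect2, the exchange factor that activates RhoA at the site of the cut, had 38.5, 19.3, 10.8 and 35.1 CPM in RYGB libraries, against 8.2, 5.4, 4.0, 3.8 and 6.8 CPM in sham libraries. Again the groups did not overlap, with a log2 fold change of 1.91 ± 0.36 (limma adjusted p = 0.0487). Of all genes in duodenum, 5.88% had every RYGB library above every sham library, and 1.69% had every one below.

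Prc1 is 1 of the 12 members that the duodenum table lists only with the help of RYGB libraries, so a difference in it was built into its listing; Mcm2 and Ect2 would be listed on their sham libraries alone. Mcm2, Ect2 and Prc1 were 3 of 27 listed members, and 0.128% of the 10930 genes tested rose. None of the other 24 passed the adjusted threshold of 0.05, and 0 fell. At an unadjusted p below 0.05, 23 members were higher and 0 lower, where 17.6% of all genes were higher and 5.11% lower. The median log2 fold change was 1.88 over the 27 members and 0.15 over all genes, and 26 of the 27 were above 0, against 63.6% of all genes. Among all genes called there, 14 rose and 24 fell, and 13 rose and 37 fell with median-of-ratios scaling, under which the median of all genes was -0.0067 on the log2 scale and 0 members changed sign. The number of calls changed with the library left out. With RYGB 1, 2 or 4 or sham 1, 2, 3 or 4 left out 0 members were called, as without the libraries rich in pancreatic transcripts. Over all genes 0 rose and 0 to 13 fell in those fits. Without RYGB 3 there were 23 members called, where 820 genes rose and 162 fell. Without sham 5 there were 4, where 303 genes rose and 137 fell. Across the 15 alternative settings Prc1 kept a log2 fold change between 2.13 and 3.30, with adjusted p-values from 0.00247 to 0.939.

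The RYGB animals differed widely among themselves in duodenum. Mki67, the Ki-67 antigen that coats mitotic chromosomes, had 119.7, 9.9, 3.2 and 34.6 CPM in RYGB libraries 1 to 4, against 2.7, 2.2, 1.8, 2.8 and 2.6 CPM in sham libraries. Every RYGB library was above every sham library, RYGB 3 by little, and the log2 fold change of 2.63 ± 0.77 had a limma adjusted p of 0.0944. Top2a, the topoisomerase that untangles replicated chromosomes, had 223.3, 27.5, 4.8 and 81.1 CPM, against 7.3, 4.5, 2.5, 3.7 and 5.4 CPM in sham libraries. RYGB 3 lay inside the sham range here, and the log2 fold change was 2.94 ± 0.88 (limma adjusted p = 0.102). Ccna2, the S and G2 phase cyclin, had 74.3, 23.1, 1.1 and 39.7 CPM, against 1.6, 1.2, 0.8, 1.1 and 1.4 CPM in sham libraries, again with RYGB 3 among the sham values (log2 fold change 3.17 ± 0.84, limma adjusted p = 0.0866). RYGB 1, from animal R2, was the highest library for 26 of 27 members and RYGB 1 and RYGB 4 were the top pair for 24. RYGB 3, from animal R4, was within the sham range for 20 members, above it for 4 and below it for 3.

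By role, the median log2 fold change was 1.78 over cyclins and mitotic kinases, 2.45 over checkpoint and kinetochore genes, 2.58 over chromosome and spindle genes and 1.88 over cytokinesis genes. Over the 6 chromosome and spindle genes (Mki67, Top2a, Kif11, Tpx2, Nusap1 and Hmmr) the log2 fold changes ran from 2.17 to 2.94, and their summed level was 527.1, 72.3, 12.1 and 190.2 CPM in RYGB libraries, against 7.8 to 19.2 CPM in sham libraries. The 3 listed kinetochore and checkpoint genes, Bub1b, Cenpe and Cenpf, had log2 fold changes of 2.14 to 2.55. The 10 listed replication genes had a median of 1.33 and a range of -0.53 to 1.98. Mcm3, Mcm5, Tyms, Ccnb2, Aurka, Bub1b, Cenpf, Tpx2, Nusap1, Hmmr, Prc1 and Kif20a are listed here only with the help of RYGB libraries. A difference in them was built into their listing and enters these medians. Whether these roles differ from each other was not tested. Mcm6, another helicase subunit, stood outside the pattern with 35.6, 13.2, 5.3 and 27.9 CPM in RYGB libraries, against 37.8, 24.7, 31.9, 27.8 and 10.0 CPM in sham libraries. Its groups overlapped, and the log2 fold change was -0.53 ± 0.51 (limma adjusted p = 0.566). Pcna, the sliding clamp, overlapped between the groups except for RYGB 1, at 42.1, 21.2, 18.1 and 21.9 CPM against 24.5, 23.0, 19.0, 17 and 19.4 CPM (log2 fold change 0.25 ± 0.25, limma adjusted p = 0.581).

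Crypt markers moved with these genes in duodenum. Of 10 stem cell and crypt base markers 9 were listed, all but Ascl2, and they summed to 532.6, 174.4, 125.8 and 671.1 CPM in RYGB libraries 1 to 4, against 72.2 to 116.5 CPM in sham libraries. Lgr5, the stem cell receptor, had 4.6, 1.7, 3.3 and 10.2 CPM, against 0.5 to 2.5 CPM, and Olfm4 had 231.2, 54.8, 2.9 and 283.9 CPM, against 0.7 to 1.5 CPM. The 5 listed of 7 Paneth cell markers summed to 92.3 to 408.7 CPM in RYGB and 23.2 to 68.7 CPM in sham libraries. Among them Lyz1, the Paneth cell lysozyme, had 109.8, 103.0, 20.8 and 227.4 CPM, against 10.6 to 19.1 CPM. The 10 villus enterocyte markers summed to 35060 to 57800 CPM in RYGB and 28620 to 66480 CPM in sham libraries, and Alpi, the alkaline phosphatase of mature enterocytes, fell to 792.5 to 1723.0 CPM, against 2177.5 to 4105.7 CPM (log2 fold change -1.51 ± 0.28, limma adjusted p = 0.0487). Of the 10 villus markers 4 had a fold change above 0, the highest that of Anpep (1.14 ± 0.45, limma adjusted p = 0.171), and Alpi alone passed the test. In bulk RNA, more dividing cells in a scraping and more RNA per dividing cell cannot be told apart, and the part of crypt content in these differences was not tested.

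**Figure D1:**
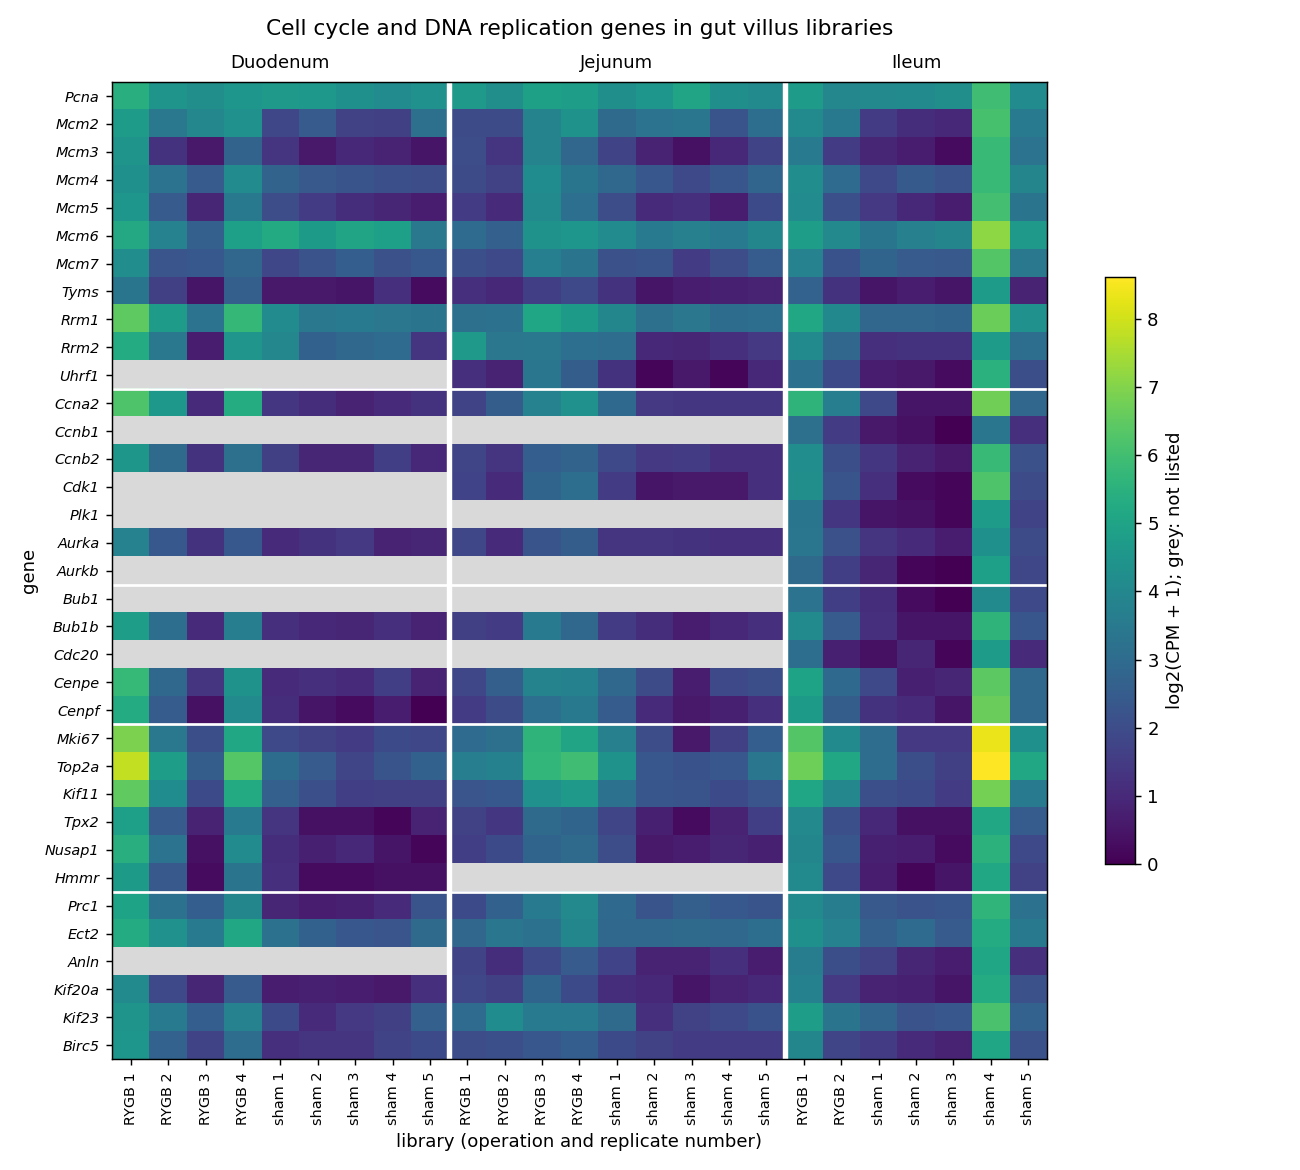
Heat map of the 35 genes (rows, white lines between roles) in the 25 gut libraries (columns, RYGB left of sham in each segment); colour is log2(CPM + 1) and grey marks genes not listed in that table. Duodenum RYGB 1 and RYGB 4, jejunum RYGB 3 and RYGB 4, and ileum sham 4 and RYGB 1 are the bright columns, while Pcna and Mcm6 are bright in nearly every column.

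Other genes of the same pathways, from lists chosen with earlier results of these data known, were read beside the members in duodenum. Of 29 listed further replication genes, 19 further mitosis genes, 10 G1 cyclins, kinases and E2F factors, and 15 inhibitors and pocket proteins, 0 passed the test. At an unadjusted p below 0.05, 11, 14, 8 and 4 of them were higher and 0 were lower, and their median log2 fold changes were 0.54, 1.58, 1.07 and 0.24.

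In jejunum, which in RYGB mice can be the limb that carries food or the limb that carries bile, Rrm2, Kif23, Kif20a and Nusap1 rose. Which limb was sampled is not stated. Rrm2, the S phase subunit of ribonucleotide reductase, had 23.7, 9.6, 9.8 and 7.8 CPM in RYGB libraries 1 to 4, against 7.4, 1.0, 0.9, 1.3 and 1.7 CPM in sham libraries 1 to 5. Every RYGB library was above every sham library, although sham 1 came close, and the log2 fold change was 2.13 ± 0.46 (limma adjusted p = 0.0185). Kif23, a motor of the central spindle, had 7.0, 17.3, 11.1 and 10.8 CPM, against 6.9, 1.3, 2.2, 2.7 and 3.5 CPM in sham libraries. The lowest RYGB and the highest sham library were nearly equal (log2 fold change 1.60 ± 0.36, limma adjusted p = 0.0190). Of all genes in jejunum, 7.53% had every RYGB library above every sham library, and 6.75% had every one below.

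Kif20a, another midzone motor, had 2.6, 2.1, 5.9 and 2.8 CPM in RYGB jejunum, against 1.2, 1.0, 0.4, 0.8 and 1.0 CPM in sham jejunum (log2 fold change 1.15 ± 0.27, limma adjusted p = 0.0222). The groups did not overlap, at levels of a few CPM. Nusap1, a microtubule-binding protein of the spindle, had 2.0, 2.8, 5.9 and 6.8 CPM, against 3.1, 0.5, 0.6, 0.9 and 0.7 CPM in sham libraries. Sham 1 exceeded RYGB 1 and 2, and the log2 fold change was 1.32 ± 0.38 (limma adjusted p = 0.0432). Kif20a and Nusap1 were among the 9 members that the jejunum table would not list on its sham libraries alone, so a difference in them was built into their listing, while Rrm2 and Kif23 would be listed.

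These were 4 of 29 listed members, where 6.32% of the 11021 genes tested rose and 6.29% fell, and 0 members fell. At an unadjusted p below 0.05, 18 members were higher and 0 lower, against 16.9% and 13.6% of all genes. The median log2 fold change was 1.08 over the members and 0.08 over all genes, and 28 of 29 members were above 0, against 56.8% of all genes, or 27 with median-of-ratios scaling, under which Mcm2 changed sign. Without RYGB 2 the count was 13, where 1079 genes rose and 641 fell. With RYGB 3 or sham 3 or 4 left out it was 2, where 252 to 358 genes rose and 307 to 394 fell. Without sham 2 it was 1, where 225 genes rose and 259 fell. Rrm2 and Kif23 were called in 12 of 14 alternatives each, Kif20a in 8 of 13 and Nusap1 in 5 of 13. None of these alternatives undid the listing of Kif20a and Nusap1 through RYGB libraries.

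In jejunum the high libraries came from animals R4 and R5, where in duodenum they came from R2 and R5. Mki67 had 7.0, 8.1, 47.5 and 32.0 CPM in RYGB libraries 1 to 4, against 12.5, 3.1, 0.5, 2.1 and 5.0 CPM in sham libraries. Top2a had 12, 12.9, 50.9 and 62.4 CPM, against 19.9, 4.1, 3.5, 4.1 and 9.5 CPM, and Ccna2 had 2.4, 4.8, 13.1 and 19.3 CPM, against 6.7, 1.7, 1.6, 1.6 and 1.6 CPM. For these 3 genes RYGB 3 and 4 were above every sham library, and RYGB 1 and 2 lay below sham 1, with log2 fold changes of 2.09 ± 0.70, 1.87 ± 0.61 and 1.41 ± 0.54 that did not pass (limma adjusted p = 0.0740, 0.0682 and 0.106). RYGB 3 and 4, from animals R4 and R5, were the top pair for 25 of 29 members, and each was above every sham library for 28. Of the 29, 9 would not be listed on sham libraries alone, which favours such counts. RYGB 1 and 2, from animals R1 and R2, were within the sham range for 16 and 20 members. Sham 1, from animal W11, was the highest sham library for 23.

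Rrm2 did not follow the other members in jejunum: its highest library was RYGB 1, where Mki67 was lowest among the RYGB libraries. Kif23 was highest in RYGB 2, and Mcm2 was lower in RYGB 1 and 2, at 3.0 and 2.9 CPM, than in any sham library, at 3.7 to 9.4 CPM. Mcm6 had 7.0, 5.3, 20 and 22.2 CPM, against 10.8 to 16.9 CPM in sham libraries, with RYGB libraries on both sides of the sham range (log2 fold change -0.16 ± 0.38, limma adjusted p = 0.815).

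Crypt markers were higher in RYGB jejunum as well. The stem cell and crypt base markers, 9 of 10 listed, summed to 138.0, 100.9, 168.1 and 254.9 CPM in RYGB libraries, against 45.7 to 84.2 CPM in sham libraries, with Lgr5 at 0.8 to 6.6 CPM, against 0.9 to 2.3 CPM, and Olfm4 at 3.4 to 101.8 CPM, against 0.8 to 8.6 CPM. The 5 listed Paneth cell markers summed to 221.7 to 400.4 CPM in RYGB and 30.2 to 117.1 CPM in sham libraries, with Lyz1 at 54.9 to 132.1 CPM, against 3.7 to 43.9 CPM. The villus enterocyte markers summed to 55030 to 67710 CPM in RYGB and 49060 to 80740 CPM in sham libraries, with Alpi at 628.7 to 1527.5 CPM, against 875.2 to 1718.9 CPM. Their part in the differences was not tested. RYGB 1 and 2 had higher crypt and Paneth sums than any sham library and member levels mostly within the sham range.

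Regulators of G1 differed in both directions in RYGB jejunum. E2f2, a transcription factor that drives S phase genes, rose to 11, 26, 33.2 and 31.1 CPM in RYGB libraries, against 3.1, 2.1, 4.9, 2.4 and 5.5 CPM in sham libraries (log2 fold change 2.47 ± 0.34, limma adjusted p = 0.00362). Ccne2, cyclin E2 of the entry into S phase, fell to 16.7, 4.0, 12.3 and 22.3 CPM, against 43.2, 34.2, 61.3, 62.5 and 36.7 CPM (-1.87 ± 0.40, limma adjusted p = 0.0189). Neither gene had overlapping groups. Among inhibitors of cyclin-dependent kinases, Cdkn1a (1.30 ± 0.22) and Cdkn2b (1.62 ± 0.35) rose, and Cdkn1b fell (-0.72 ± 0.21; limma adjusted p = 0.00721, 0.0179 and 0.0431). Cdkn1a had 220.8 to 423.2 CPM in RYGB and 104.4 to 149.1 CPM in sham libraries. Of 27 listed further mitosis genes 1 rose, the checkpoint kinase gene Ttk (1.14 ± 0.32, limma adjusted p = 0.0401), and of 30 listed further replication genes 0 changed.

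The difference between RYGB and sham mice was compared between jejunum and duodenum in the 3 RYGB and 5 sham animals that gave both segments, with the animal as a block. Of 26 members 0 differed between the segments, where 2.40% of 10663 genes did (56 higher and 200 lower, or 82 and 120 with median-of-ratios scaling), and 3 did at an unadjusted p below 0.05, where 20.4% of genes did. The smallest adjusted p was that of Ect2, whose RYGB difference was 1.42 ± 0.41 lower in jejunum on the log2 scale (limma adjusted p = 0.0845). The median difference of differences over the members was -0.78, against -0.15 over all genes, and it was 0.39 without animal R2 and -1.98 without animal R4, so that its direction rested on 1 animal. Without R4, 4 members were lower in jejunum, where 42 of all genes were higher and 249 lower. With median-of-ratios scaling Pcna, Kif23 and Mcm7 changed sign in this comparison. Ccne2, no member itself, differed between the segments (-2.39 ± 0.45, limma adjusted p = 0.0236).

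In sham animals alone, the 26 members were compared between jejunum and duodenum of the same 5 mice. Prc1 was higher in jejunum, at 6.7, 3.7, 5.1, 4.2 and 3.7 CPM, against 0.9, 0.6, 0.7, 1.1 and 3.7 CPM in duodenum (log2 difference 1.35 ± 0.28, limma adjusted p = 0.0228). It was higher in 4 of 5 animals and equal in W3. Rrm2 was lower in jejunum, at 7.4, 1.0, 0.9, 1.3 and 1.7 CPM, against 14.9, 5.4, 6.3, 7.1 and 1.5 CPM (-1.25 ± 0.30, limma adjusted p = 0.0377), in 4 of 5 animals. These were 1 higher and 1 lower member, where 3.54% of genes were higher and 2.25% lower. Without any 1 of animals W12, W14 or W15, 0 members were called, and without W11 only Rrm2. Without W3 there were 4, where 334 of all genes were higher and 197 lower. Of the other lists, Ccne2 (1.42 ± 0.24) and the lamin gene Lmnb1 (0.87 ± 0.17) were higher in sham jejunum than in sham duodenum (limma adjusted p = 0.00809 and 0.0192). Between sham ileum and sham jejunum 0 of 29 members passed, where 8.40% of 10851 genes were higher and 6.52% lower (911 and 708, or 717 and 969 with median-of-ratios scaling), and 1 did at an unadjusted p below 0.05, where 30.4% of genes did. The median log2 difference over the members was 0.81, and it was -0.02 without animal W15. In that fit 1 member was higher and 1 lower, where 1903 of all genes were higher and 1941 lower. Pcna changed sign with median-of-ratios scaling. Of the other lists, the condensin gene Ncapg (3.13 ± 0.39), Cdkn2b (1.85 ± 0.26) and Cdkn1a (1.23 ± 0.27) were higher in sham ileum than in sham jejunum (limma adjusted p = 0.00155, 0.00308 and 0.0193).

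In ileum, 0 of 35 members passed the test between the 2 RYGB and 5 sham libraries, where 0% of 12041 genes did. At an unadjusted p below 0.05 the count of members was also 0, where 3.64% of genes passed, 1.69% higher and 1.95% lower. The smallest p belonged to Ccna2, with 47.2 and 11.9 CPM in RYGB libraries 1 and 2, against 2.7, 0.4, 0.4, 106.3 and 6.1 CPM in sham libraries 1 to 5 (log2 fold change 2.15 ± 1.58, limma adjusted p = 1.00). The sham libraries spanned the RYGB values, with sham 4 far above and sham 1 to 3 below. Mki67 had 78.0 and 16.5 CPM, against 7.4, 1.7, 1.7, 330.3 and 19.0 CPM, and Top2a had 105.0 and 33.8 CPM, against 7.4, 3.2, 2.1, 390.9 and 35 CPM. The order was the same for both, with sham 4 first, RYGB 1 second, and RYGB 2 level with sham 5.

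All 35 members were highest in ileum sham 4 and second in RYGB 1. The ratio of sham 4 to RYGB 1 had a median of 3.09 over the members, from 1.16 for Ccnb1, the mitotic cyclin B1, to 6.02 for Mcm7, a helicase subunit. RYGB 1, from animal R2, was above sham 1, 2, 3 and 5 for all 35 members, and RYGB 2, from animal R5, was above sham 1, 2 and 3 for 32 and below sham 5 for 21. Summed over the 35 members, levels were 760.6 and 244.3 CPM in RYGB libraries, against 102.8, 81.4, 74.3, 2521 and 273.6 CPM in sham libraries. With sham 4 in the fit the median log2 fold change of the members was 0.88, with 32 of 35 above 0, where the median of all genes was -0.09 and 42.4% were above 0. Without it the median was 1.67, with 35 of 35 above 0, the median of all genes was 0.09, and still 0 members passed; 28 genes rose and 18 fell in that fit.

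The ileum libraries followed the crypt markers in part. Olfm4 had 93.6 and 33.3 CPM in RYGB libraries, against 5.1, 2.1, 2.6, 2937.4 and 6.0 CPM in sham libraries, and Lgr5 had 10.8 and 1.5 CPM, against 5.3, 5.7, 1.3, 329.9 and 2.0 CPM. The stem cell and crypt base sum was 368 and 144.6 CPM in RYGB libraries, against 142.5, 106.1, 59.3 and 125.9 CPM in sham 1, 2, 3 and 5, and the Paneth sum 715.4 and 156.6 CPM, against 181.8, 43.3, 62.1 and 122.0 CPM. Sham 5, with the highest member levels after sham 4 among the sham libraries, had 616 CPM over 9 listed of 10 B cell and germinal centre markers, against 0.7 to 73.8 CPM in the other 6 libraries, and no crypt or Paneth sum beyond the other sham libraries. The part of these cells in the members' levels was not tested.

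**Figure D2:**
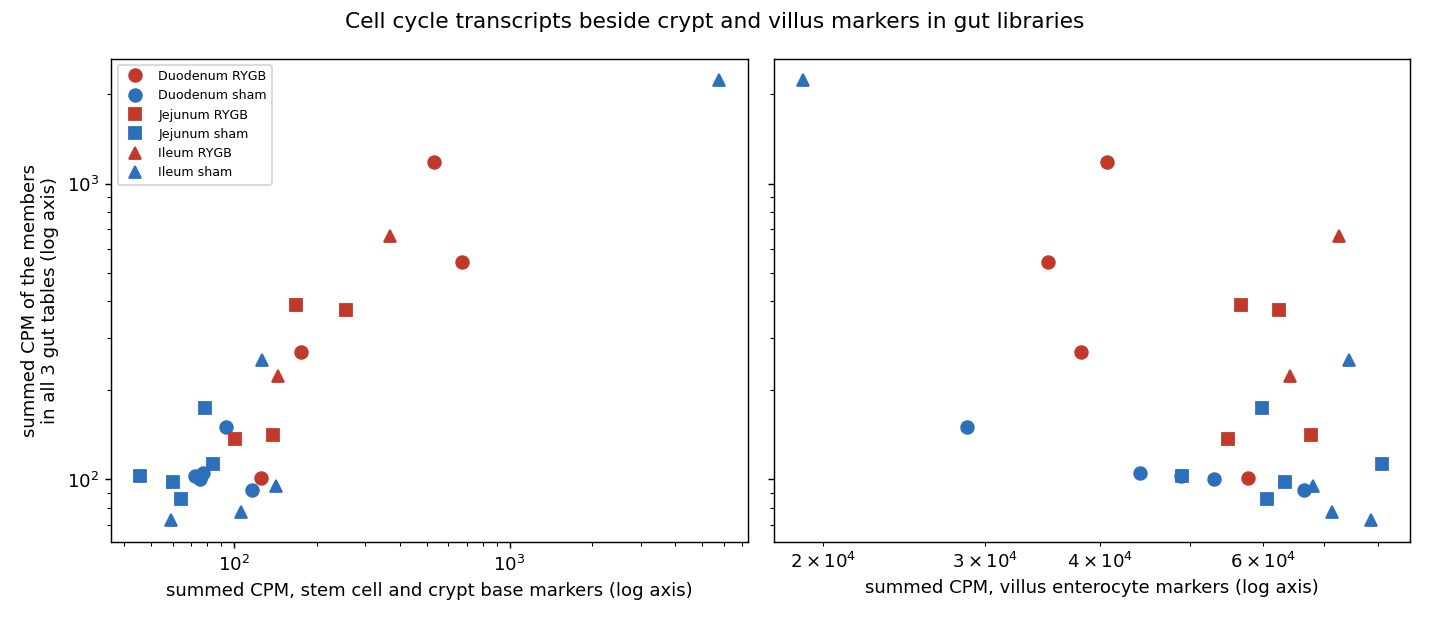
Summed CPM of the 26 members in all 3 gut tables (vertical, log axis) against the summed CPM of stem cell and crypt base markers (left) and villus enterocyte markers (right; log axes), 1 point per gut library, coloured by operation and shaped by segment. Ileum sham 4 lies far from all others in both panels, at 5761 CPM of crypt markers and 19010 CPM of villus markers.

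In WAT, Aurkb, Uhrf1, Ccnb2, Birc5 and Plk1 rose. Aurkb, the kinase of the chromosomal passenger complex, had 2.4, 1.9, 4.6 and 6.8 CPM in RYGB libraries 1 to 4, against 0.9, 1.0, 0.8, 0.9 and 0.6 CPM in sham libraries 1 to 5. Every RYGB library was above every sham library (log2 fold change 1.31 ± 0.28, limma adjusted p = 0.00474). Birc5, survivin, a partner in the same complex, had 1.7, 2.4, 7.5 and 9.2 CPM, against 1.7, 1.8, 2.2, 0.9 and 0.6 CPM (1.17 ± 0.41, limma adjusted p = 0.0404), and RYGB 1 lay among the sham values. Uhrf1, which keeps up DNA methylation behind the replication fork, had 2.5, 1.2, 5.0 and 6.8 CPM, against 1.2, 1.4, 0.9, 0.8 and 0.7 CPM (1.14 ± 0.34, limma adjusted p = 0.0210).

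Ccnb2, cyclin B2, had 2.1, 2.1, 7.6 and 8.4 CPM in RYGB WAT, against 1.4, 2.4, 1.4, 1.4 and 0.9 CPM in sham WAT (log2 fold change 1.10 ± 0.37, limma adjusted p = 0.0347). Plk1, the Polo kinase of mitotic entry, had 2.0, 1.3, 4.3 and 6.4 CPM, against 1.2, 1.5, 0.8, 1.2 and 1.4 CPM (0.88 ± 0.32, limma adjusted p = 0.0481). For both genes RYGB 3 and 4 were above every sham library and RYGB 2 lay in the sham range, as did RYGB 1 for Ccnb2. Aurkb, Uhrf1 and Birc5 were listed in WAT only with the help of RYGB libraries, so a difference in them was built into their listing, while Ccnb2 and Plk1 would be listed on sham libraries alone. All 5 genes were low in this tissue, at under 10 CPM in every library, and with a mean of at least 5 CPM required 0 members were called, because none of the 5 reached it.

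These 5 of 34 listed members compare with 14.3% of the 12690 genes tested that rose and 26.3% that fell, so the share called was about that of all genes, and 0 members fell. At an unadjusted p below 0.05, 6 members were higher and 0 lower, against 17.9% and 32.8%. The median log2 fold change was 0.60 over the members and -0.16 over all genes, and 30 of 34 were above 0, against 40.5% of all genes. Among all genes 1812 rose and 3341 fell, and 2681 rose and 2593 fell with median-of-ratios scaling, under which the median of all genes was 0.0047, 0 members changed sign and 10 were called. Aurkb was called under all 13 alternatives and Uhrf1 under 12, Ccnb2 under 6 and Birc5 and Plk1 under 5 each. None of these alternatives undid the listing of Aurkb, Uhrf1 and Birc5 through RYGB libraries. Without RYGB 2 there were 16 members called, where 1705 genes rose and 2828 fell. Without RYGB 3 there were 2 higher and 1 lower, where 2130 genes rose and 4021 fell. Without RYGB 4 or any 1 sham library there were 2 or 3, where 1391 to 1689 genes rose and 2545 to 3741 fell.

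In adipose tissue, RYGB 3 and 4, from animals R3 and R4, were the top pair for 30 of 34 members. Mki67 had 11.5, 6.1, 43.2 and 43.7 CPM in RYGB libraries, against 12.2, 12.7, 5.6, 7.8 and 4.0 CPM in sham libraries, Top2a had 17, 5.9, 64.4 and 58.9 CPM, against 14.3, 15, 9.3, 8.9 and 6.9 CPM, and Ccna2 had 6.4, 2.7, 24.1 and 31.2 CPM, against 5.2, 5.7, 6.4, 4.1 and 3.9 CPM. RYGB 3 and 4 were above every sham library for 31 and 33 members, RYGB 1 lay within the sham range for 21, and RYGB 2, from animal R2, lay below every sham library for 17. Of the 34 members 6 would not be listed on sham libraries alone. Over all 4 RYGB libraries at once, 1 member lay above and 0 below every sham library, against 11.7% and 22% of all genes. The log2 fold changes of these 3 genes, 1.22 ± 0.55, 1.21 ± 0.58 and 1.03 ± 0.55, did not pass (limma adjusted p = 0.0968, 0.119 and 0.152).

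Cdk1 and Anln went another way. Cdk1, the kinase that drives mitosis, had 3.9, 2.2, 15.5 and 21.3 CPM in RYGB WAT, against 15.4, 14.5, 11.6, 8.3 and 10.6 CPM in sham WAT, so that RYGB libraries lay on both sides of the sham range (log2 fold change -0.56 ± 0.51, limma adjusted p = 0.399). Anln, anillin of the contractile ring, had 7.8, 6.1, 21.4 and 12 CPM, against 16.8, 15.8, 12.3, 16.4 and 13 CPM (-0.44 ± 0.29, limma adjusted p = 0.248).

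Among the immune marker sums, only that of B cell and germinal centre markers separated RYGB from sham WAT. The 6 T cell markers summed to 5.3, 3.7, 16.9 and 208.5 CPM in RYGB libraries, against 5.4 to 18.9 CPM in sham libraries, so that RYGB 4 stood apart. The 5 listed of 10 B cell and germinal centre markers summed to 60.3, 136.9, 122.5 and 429.5 CPM, against 12.8 to 16.7 CPM, with the chemokine gene Cxcl13 among them rising by 4.93 ± 0.35 (limma adjusted p = 2.4e-05). The 6 listed of 7 macrophage markers summed to 620.4, 494.6, 929.5 and 663.3 CPM, against 438.1 to 712.9 CPM, all but Adgre1 being listed. The 5 adipocyte markers summed to 15910 to 32510 CPM in RYGB and 16190 to 19870 CPM in sham libraries, highest in RYGB 2, where the members' sum was lowest. The 3 listed of 5 hepatocyte markers, Alb, Ttr and Cyp2e1, summed to 2789 to 16500 CPM in RYGB and 475.5 to 1588 CPM in sham WAT. This sum was highest in RYGB 2 as well, and which cells in WAT made these transcripts was not tested. The 4 listed of 6 smooth muscle markers summed to 91.6 to 199.1 CPM in RYGB and 380.7 to 1161 CPM in sham WAT, with no overlap, and the 5 endothelial markers to 667.4 to 1512 CPM in RYGB and 1247 to 1675 CPM in sham WAT. Their part in the members' differences was not tested.

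Other cell cycle genes changed in adipose tissue, where 40.6% of all genes were called. Cdkn2c, an inhibitor of the CDK4 and CDK6 kinases, rose (1.89 ± 0.20, limma adjusted p = 0.000164), with 254.7, 139.2, 178.7 and 210.6 CPM in RYGB libraries, against 48.1, 64.9, 37.8, 52.9 and 55.2 CPM in sham libraries. Its groups did not overlap, and it was high in RYGB 1 as well, where most members lay in the sham range. Of the GINS complex, which completes the replicative helicase, Gins1 (1.66 ± 0.24) and Gins4 (0.66 ± 0.14) rose, as did E2f2 (1.64 ± 0.28) and Cks1b (0.92 ± 0.15), a partner of cyclin-dependent kinases. Pola2, a subunit of the primase complex, fell (-0.73 ± 0.17). In the lists, 4 of 33 further replication genes rose and 2 fell, 4 of 36 further mitosis genes and 3 of 13 G1 genes rose and 0 fell, and 2 of 15 inhibitors and pocket proteins rose and 2 fell.

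In liver, 0 of 20 listed members passed, where 2.03% of the 10285 genes tested rose and 2.60% fell, and 4 members were higher and 0 lower at an unadjusted p below 0.05, where 20.6% of genes were higher and 13.2% lower, so the share of members was about that of all genes. The member with the smallest p was Bub1b, the spindle checkpoint kinase BubR1, with 1.6, 1.8, 1.7, 1.7 and 0.5 CPM in RYGB libraries 1 to 5, against 0.4, 0.2, 0.1 and 0.0 CPM in sham libraries 1 to 4. Every RYGB library was above every sham library, at levels near the listing limit (log2 fold change 1.04 ± 0.30, limma adjusted p = 0.0592). Mcm6 had 5.7, 6.0, 4.8, 4.1 and 1.3 CPM, against 2.3, 2.1, 0.0 and 0.1 CPM, and only RYGB 5 fell into the sham range (1.46 ± 0.50, limma adjusted p = 0.0794). Both genes are listed in liver only with the help of RYGB libraries.

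The liver levels differed between animals within both groups. Mki67 had 4.3, 8.8, 9.5, 1.7 and 0.6 CPM in RYGB libraries, against 3.5, 1.9, 0.1 and 0.0 CPM in sham libraries, Top2a had 22.6, 23.0, 10.2, 1.7 and 0.9 CPM, against 6.4, 4.3, 1.4 and 0.3 CPM, and Ccna2 had 2.5, 7.4, 4.4, 1.3 and 0.5 CPM, against 0.6, 2.4, 0.8 and 0.4 CPM. RYGB 1 to 3, from animals R1 to R3, were above every sham library for these 3 genes, and RYGB 4 and 5 were within the sham range. Over the 20 listed members, RYGB 1, 2 and 3 were above every sham library for 14, 14 and 13, and RYGB 4 and 5 for 2 each. Of the 20, 12 would not be listed on sham libraries alone, which favours such counts, and no share of all genes by library is given. Over all 5 RYGB libraries at once, 1 member lay above and 0 below every sham library, against 4.34% and 8.01% of all genes. The median log2 fold change was 0.75, with 19 of 20 members above 0, against 0.26 and 60.4% over all genes, and the median of all genes was 0.09 with median-of-ratios scaling, under which Anln changed sign. Macrophage markers, 6 of 7 listed with Adgre1 absent, summed to 384.3, 193.3, 791.0, 236.8 and 43.8 CPM in RYGB livers, against 72.8, 49.2, 7.6 and 20.2 CPM in sham livers, so that RYGB 5 lay in the sham range. Of the B cell and germinal centre markers 2 of 10 were listed, Cxcl13 and Ms4a1, and they summed to 2080, 804.5, 163.5, 64.8 and 6.3 CPM in RYGB livers, against 20.6, 7.1, 7.4 and 4.3 CPM in sham livers, with log2 fold changes of 5.06 ± 1.45 for Cxcl13 and -1.14 ± 0.45 for Ms4a1 (limma adjusted p = 0.0620 and 0.104). The sum was highest in RYGB 1 to 3, as the members were. Of its 2 genes only Cxcl13 had a fold change above 0, so the sum does not measure B cells. Which cells made Cxcl13, and their part in the members' levels, was not tested. Hepatocyte markers summed to 26320 to 107700 CPM in RYGB and 29410 to 42530 CPM in sham livers. Among the other lists, 2 inhibitors fell, Cdkn1b (-1.49 ± 0.33) and Cdkn2c (-1.26 ± 0.33; limma adjusted p = 0.0392 and 0.0484), and of the 21, 16 and 9 further replication, mitosis and G1 genes listed 0 changed.

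In muscle, 0 of 14 listed members passed, where 0% of the 11594 genes tested did. At an unadjusted p below 0.05, 2 members were higher and 2 lower, where 4.02% of genes were higher and 2.98% lower. Tpx2, which targets Aurora A to the spindle, had 3.0, 3.7, 2.0 and 3.8 CPM in RYGB libraries 1 to 4, against 13.4, 15.1, 8.6 and 5.2 CPM in sham libraries 1 to 4 (log2 fold change -1.42 ± 0.30, limma adjusted p = 0.328). Anln had 3.1, 3.5, 3.9 and 4.0 CPM, against 5.0, 7.2, 5.0 and 6.4 CPM (-0.57 ± 0.18, limma adjusted p = 0.595). For both genes every RYGB library was below every sham library, where 1.96% of all genes showed that order. Rrm2 had 5.5, 10.0, 4.4 and 1.8 CPM, against 1.5, 0.6, 2.5 and 1.9 CPM, with RYGB 4 among the sham values (1.18 ± 0.38, limma adjusted p = 0.595). The median log2 fold change was 0.13 over the members and 0.00 over all genes. Macrophage markers, 6 of 7 listed, summed to 126 to 300.4 CPM in RYGB and 62.8 to 165.1 CPM in sham muscle, and their part was not tested.

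**Figure D3:**
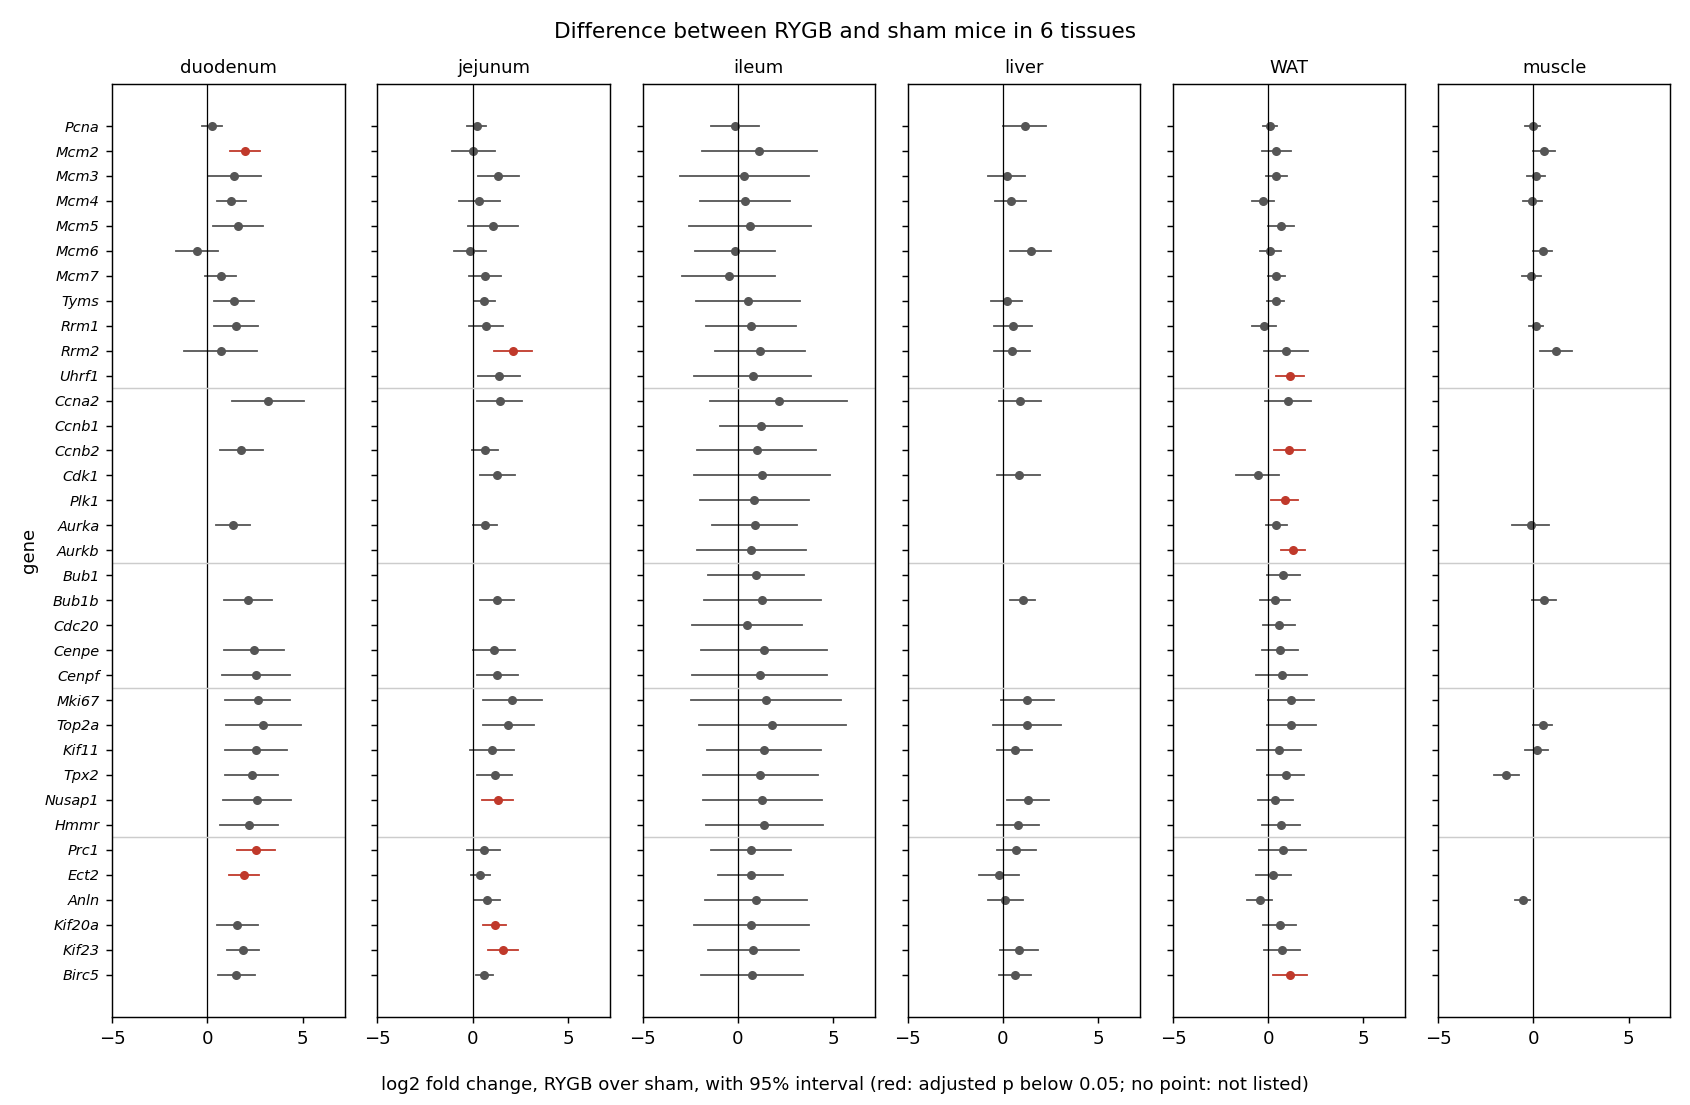
Log2 fold change (horizontal, RYGB over sham on the log2(CPM + 1) scale) of each gene (vertical, ordered by role) in 6 tissues; points are limma estimates, lines 95% intervals, and red marks an adjusted p below 0.05. Red points number 3 in duodenum, 4 in jejunum and 5 in WAT, and the intervals in ileum are the widest.

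Across tissues, the highest RYGB animal was not the same one. Summed over the listed members of each tissue, animal R2 had 1205 CPM in duodenum, 140 CPM in jejunum, 760.6 CPM in ileum, 153 CPM in liver and 153.7 CPM in WAT. It was the highest RYGB animal in duodenum, ileum and liver and the lowest in jejunum and WAT. Animal R4 had 101.3 CPM in duodenum, 407.8 CPM in jejunum, 69.2 CPM in liver and 549.9 CPM in WAT, and was thus lowest of the RYGB animals in duodenum and highest in jejunum and WAT. Animal R5 had 552.7, 391.6 and 244.3 CPM in duodenum, jejunum and ileum, and 63.7 CPM in liver, the lowest RYGB value there. Sham animal W15, with 2521 CPM in ileum, had 100.5 CPM in duodenum and 87.9 CPM in jejunum, the jejunal sum being the lowest of all jejunal libraries.

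**Figure D4:**
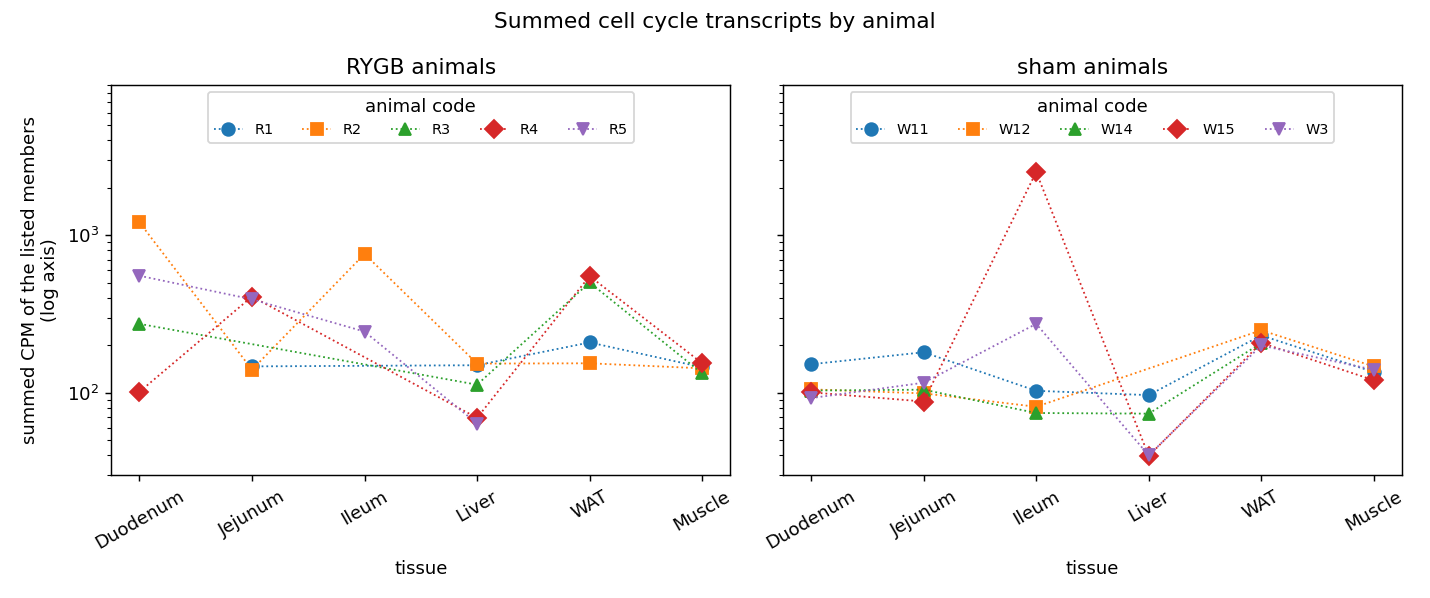
Summed CPM of the listed members (vertical, log axis) in 6 tissues for each RYGB animal (left) and sham animal (right), 1 marker per library with dotted lines joining an animal's tissues. The listed members number 27, 29, 35, 20, 34 and 14 from left to right, so values compare only within a tissue; R2 and R4 swap places between duodenum and jejunum, and W15 stands out in ileum at 2521 CPM.

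**Figure D5:**
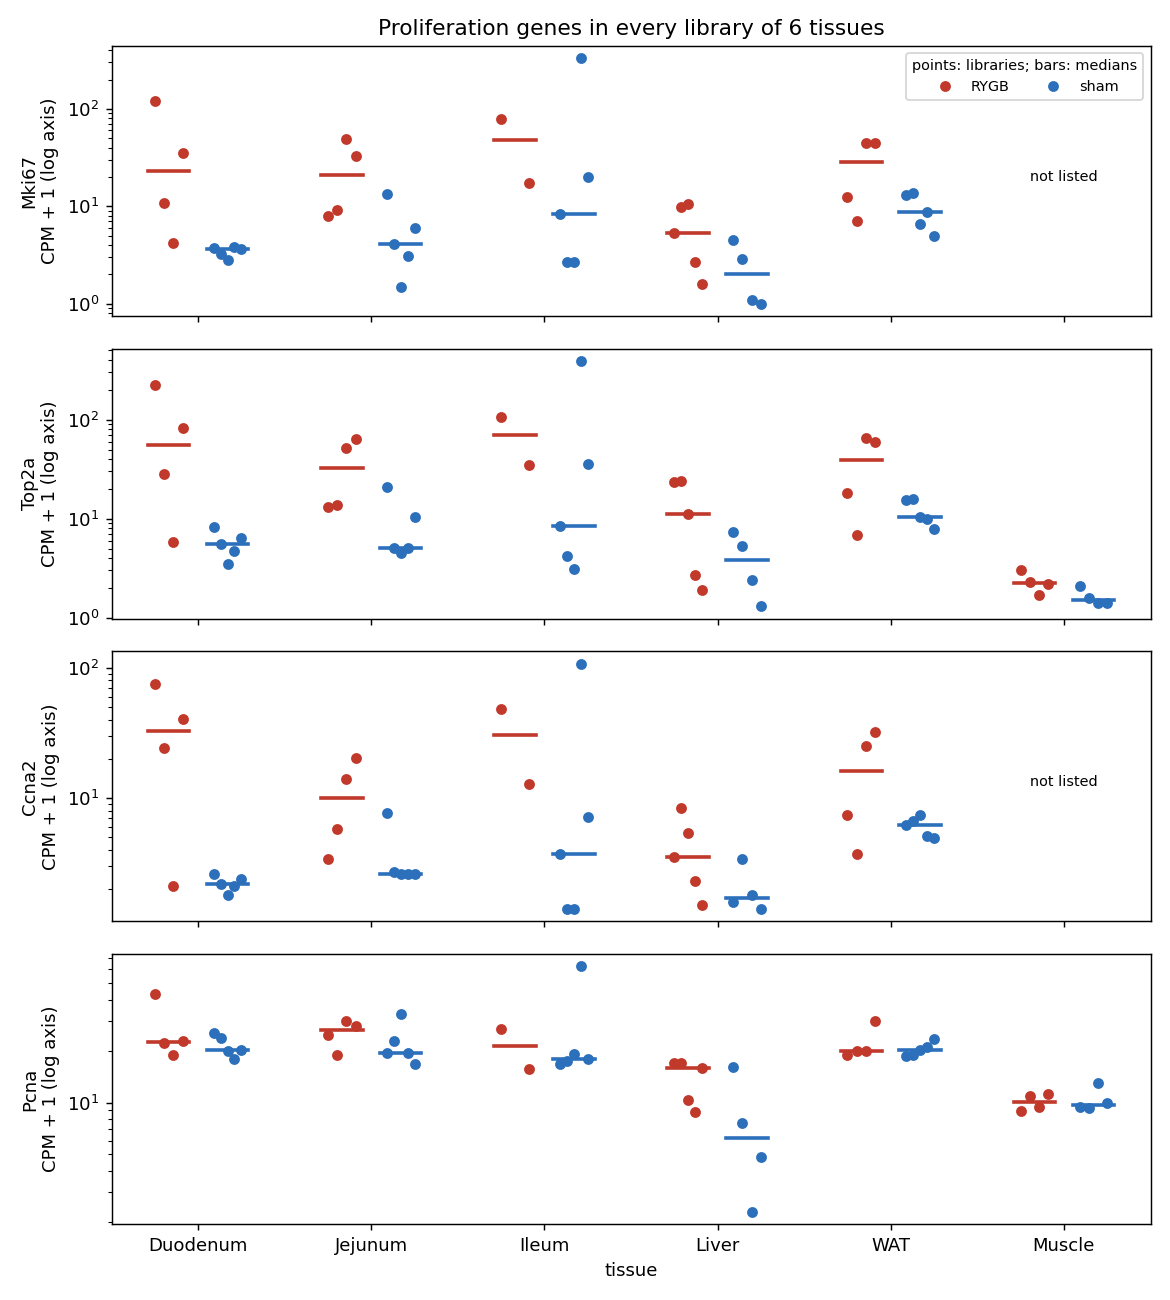
CPM + 1 (vertical, log axis) of Mki67, Top2a, Ccna2 and Pcna in every library of 6 tissues, RYGB left of sham; points are libraries and bars medians. Mki67, Top2a and Ccna2 spread widely among RYGB libraries of the gut, liver and WAT. Pcna varies less in gut and WAT, where duodenum RYGB 1 (42.1 CPM) and ileum sham 4 (61.4 CPM) stand apart, and varies widely in liver.

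Levels of different members were compared as CPM per kilobase of exon. Pcna was first among the listed members in both groups of 5 tissues, with medians of 8.98 in RYGB and 8.08 in sham duodenum, 7.92 in RYGB and 8.04 in sham WAT, and 6.21 in RYGB and 2.17 in sham liver. In muscle Rrm1, the subunit of ribonucleotide reductase kept through the cycle, was first at 6.70 CPM per kilobase in RYGB and 6.48 in sham mice, with Pcna second at 3.81 and 3.60. After Pcna came Ccna2 in RYGB duodenum (7.69) and Mcm6 in sham duodenum (5.96), Top2a in RYGB jejunum (3.54) and Mcm6 in sham jejunum (2.70), and Top2a in RYGB ileum (7.70) and Mcm6 in sham ileum (3.04). The order of neighbours was not tested.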

How the data were processed

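RNA-seq of 6 mouse tissues was read from 6 deposited tables of CPM values per gene, with no counts. Per the submitters' processing notes, HTSeq and the build GRCm38 were used; the sources used here name no aligner, annotation release or strand setting. The deposited CPM values show that every listed gene reached 1 CPM in at least 2 libraries of ileum or 4 of another tissue. No column of other samples was used (0 found). Depth is unknown, so counting errors cannot be given.

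Values were compared as log2(CPM + 1) with limma 3.58.1 in R 4.3.3 (empirical Bayes with trend and robust settings), two-sided, RYGB over sham in each tissue, with p-values adjusted by Benjamini and Hochberg's method across each whole table and a threshold of 0.05; segments were compared with the animal as a block. The fit was tested on simulated data. Labels name separate animals, and p-values measure the spread between them. Alternatives were median-of-ratios scaling, a pseudocount of 0.1, a mean of at least 5 CPM, the replicate number as a block, library weights, leaving out each library, and, in duodenum, leaving out libraries over 10000 CPM of pancreatic transcripts. No library pair was identical.

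The members, marker lists and pathway lists were chosen with earlier results of these data known. Values in every library are given for members called in any comparison, for the member with the smallest p in a tissue with none, and for Mki67, Top2a and Ccna2; of the other cell cycle lists up to 6 called genes per comparison are named, and of the markers Lgr5, Olfm4, Lyz1 and Alpi in gut. Pcna, Mcm6, Cdk1, Anln, Cxcl13, Ms4a1 and Anpep fall outside this rule and were chosen after their values were seen. Promoter windows and their build come from RefSeq (GRCm38.p6), and exon lengths from the GRCm38 annotation; Python 3.11.15 and pandas 2.3.3 handled tables. Promoters of Aurkb, Ccna2, Kif20a, Mcm4 and Tpx2 were not matched.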

Additional observations from a re-analysis of the deposited data

Results flagged for a closer look

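Of 139 gene groups of 4 or 5 libraries, 7 held a library far from the others. The measure was the gap to its nearest neighbour over the whole range of the group, on the log2(CPM + 1) scale. Chance gives about 1 in 20 for independent groups. These groups share their libraries, so the count cannot be judged against that rate, and no conclusion is drawn from it. The highest sham library stood apart in duodenum for Prc1 (0.748 of the range), in jejunum for Ccna2 (0.965), Nusap1 (0.765) and Rrm2 (0.764), and in ileum for Kif23 (0.846). In jejunum that library was sham 1 for all 3 genes, and in ileum it was sham 4. In liver the lowest RYGB library stood apart for Bub1b (0.881), at 0.5 CPM in RYGB 5, and for Ect2 (0.712), at 0.9 CPM in RYGB 4.

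The RYGB difference of Ccne2 differed between jejunum and duodenum by -2.39 on the log2 scale. Ccne2 had 16.7, 4.0, 12.3 and 22.3 CPM in RYGB jejunum, against 43.2, 34.2, 61.3, 62.5 and 36.7 CPM in sham jejunum, and 9.0, 14.7, 13.6 and 78.4 CPM in RYGB duodenum, against 30, 17.5, 15.8, 19.8 and 7.4 CPM in sham duodenum.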

How the results depend on the processing

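Over the named genes and alternatives, 1272 values kept sign and call, 66 gained the call, 73 lost it and 38 changed sign, 0 of them past the threshold in either fit. The number of members called, 3 in duodenum, became 8 with the replicate block, 22 with library weights, 0 without the libraries rich in pancreatic transcripts, and 0 to 23 with 1 library left out. In jejunum 4 became 2 at a mean of 5 CPM, 1 with the replicate block, 2 with library weights and 1 to 13 with 1 library left out. In WAT 5 became 10 with median-of-ratios scaling, 0 at a mean of 5 CPM, 1 with the replicate block and 2 to 16 with 1 library left out. In ileum 0 became 28 with the replicate block, a fit that rests on RYGB 1 and 2 and sham 1 and 2 and so leaves out sham 4. In liver 0 became 2 with library weights and 0 to 2 with 1 library left out, and muscle stayed at 0. The segment difference gave 0 to 4 with 1 animal left out. Sham jejunum over duodenum, 2 called, gave 0 at a mean of 5 CPM, 1 with no replicate block and 0 to 4 with 1 animal left out, and sham ileum over jejunum 0 to 2. The replicate numbers name different animals, and deviations of same-numbered libraries correlated at -0.352 to 0.556, so the block shares only a number. The cause of these changes was not tested.

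Over all genes, 38 called in duodenum became 105 at a mean of 5 CPM, 450 with the replicate block, 2140 with library weights, 0 without the libraries rich in pancreatic transcripts and 1 to 982 with 1 library left out. In jejunum 1390 became 455 with the replicate block and 484 to 2258 with 1 left out. In ileum 0 became 593 with the replicate block, 1 with library weights and 0 to 46 with 1 left out. In liver 476 became 992 with median-of-ratios scaling, 7 with the replicate block, 3258 with library weights and 3 to 2253 with 1 left out. In muscle 0 became 1 at a pseudocount of 0.1, 2 with the replicate block, 13 with library weights and 0 to 24 with 1 left out. The segment difference, 256, became 6 with no replicate block and 59 to 312 with 1 animal left out. Sham jejunum over duodenum, 617, gave 224 to 568, and sham ileum over jejunum, 1619, gave 719 to 3844. Read totals were not used, so low values such as those of the 5 WAT genes have no counting error here.

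Of the 38 sign changes, 35 came with 1 library or animal left out, and these genes then had the following ranges of log2 values. In jejunum Mcm2 gave -0.40 to 0.41, and -0.032 with median-of-ratios scaling. In ileum, where leaving out RYGB 1 turned the sign, Ccnb2 gave -0.080 to 2.07, Kif20a -0.47 to 1.89, Birc5 -0.33 to 1.80 and Plk1 -0.12 to 1.85. Ect2 gave -0.42 to 0.11 in liver and -0.043 to 0.61 in WAT, and liver Rrm2 gave -0.10 with library weights. In the segment difference, where leaving out animal R2 turned the sign, Top2a gave -2.68 to 0.91, Mki67 -2.27 to 1.36, Ccna2 -2.91 to 0.31, Bub1b -2.12 to 0.74, Nusap1 -2.63 to 0.31, Ccnb2 -2.07 to 0.21, Tpx2 -2.57 to 0.24 and Kif20a -1.63 to 0.54. Kif23 gave -0.51 to 0.13, and 0.043 with median-of-ratios scaling, and Rrm2 gave -0.36 to 1.96, turning without R4. In sham jejunum over duodenum, Mki67 gave -0.025 to 0.67 and Birc5 -0.025 to 0.27. In sham ileum over jejunum, where leaving out animal W15 turned the sign, Top2a gave -0.089 to 1.81, Ccna2 -0.36 to 1.24, Ect2 -0.047 to 0.67, Ccnb2 -0.26 to 1.11, Bub1b -0.022 to 1.29, Nusap1 -0.12 to 1.36, Tpx2 -0.038 to 1.25 and Birc5 -0.26 to 0.81, and Mcm2 gave -1.41 to 0.16, turning without W12 or W14.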
